A study of Mus musculus with 16 samples.

Results

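Grem1, Chrd, Chrdl1, Nog, Bmper, Fst, Fstl1 and Twsg1 encode secreted proteins that bind bone morphogenetic proteins (BMPs) or their relatives, or that modify such binding outside the cell. All probe sets named for 1 of these 8 genes and no other gene were taken: 16 probe sets, of 28898 that carried 1 gene symbol and 45141 in all. Grem1, Chrd, Nog and Bmper had 1 probe set each, Fst and Fstl1 had 2, and Chrdl1 and Twsg1 had 4. They were measured in 4 populations sorted as colon fibroblasts from 4 mice, 1 array for each population of each mouse, 16 arrays in all. Every mouse was a C57BL/6 animal of the genotype Gli1CreERT2-ZsGreen and received 1 mg tamoxifen into the peritoneum on each of 5 days. Colons were taken on day 6 by the treatment protocol, whereas the time point label puts them 5 days after tamoxifen, and the labels do not settle which holds. No age is given in the labels, and no group was left without tamoxifen. The cells were sorted as Epcam-, CD45-, CD31- and gp38+, and then split by the surface protein Sca1 and by ZsGreen fluorescence. The populations were Sca1+Gli1ZsGreenhigh, Sca1+Gli1ZsGreendim, Sca1+Gli1ZsGreen- and Sca1-Gli1ZsGreen-, called here ZsGreen-high, ZsGreen-dim, Sca1+ ZsGreen-negative and Sca1- cells. Gli1 is an effector of Hedgehog signals and itself a target of them. Its CreERT2 acts only while tamoxifen is present, so ZsGreen brightness at the sort need not equal Gli1 activity at that time.

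BMPs are growth factors that bind receptor kinases on the cell surface, which phosphorylate Smad proteins that then act in the nucleus. Antagonists such as gremlin 1, noggin and chordin bind BMPs and keep them from the receptors, and twisted gastrulation and BMPER bind BMPs or chordin and can raise or lower the signal. In the colon, BMP signalling is strongest towards the luminal surface, where it favours differentiation of the epithelium. Fibroblasts and smooth muscle below the crypt base make BMP antagonists there, next to the epithelial stem cells.

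The stretches before the start of transcription are shown for Grem1, the antagonist with the largest rise in ZsGreen-high over Sca1+ ZsGreen-negative cells, for Twsg1, which rose with it, and for Bmper, which went the other way. Sequences are from RefSeq on GRCm38.p6 and cover the 250 bases upstream of the start, 5′ to 3′ on the strand of the gene. Capitals mark the GC element of Smad1 and Smad5, GGCGCC.
Grem1, chr2:113758649-113758898, minus strand: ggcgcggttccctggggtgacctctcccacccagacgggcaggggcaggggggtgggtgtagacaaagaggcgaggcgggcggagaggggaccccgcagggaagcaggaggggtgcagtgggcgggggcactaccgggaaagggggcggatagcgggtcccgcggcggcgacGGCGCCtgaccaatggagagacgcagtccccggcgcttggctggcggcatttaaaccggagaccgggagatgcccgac
Twsg1, chr17:65951188-65951437, minus strand: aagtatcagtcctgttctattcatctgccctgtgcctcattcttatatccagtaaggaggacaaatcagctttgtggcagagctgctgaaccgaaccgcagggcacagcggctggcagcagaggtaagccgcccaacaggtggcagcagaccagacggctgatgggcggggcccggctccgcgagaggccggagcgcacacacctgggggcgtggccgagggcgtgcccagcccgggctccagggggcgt
Bmper, chr9:23222826-23223075, plus strand: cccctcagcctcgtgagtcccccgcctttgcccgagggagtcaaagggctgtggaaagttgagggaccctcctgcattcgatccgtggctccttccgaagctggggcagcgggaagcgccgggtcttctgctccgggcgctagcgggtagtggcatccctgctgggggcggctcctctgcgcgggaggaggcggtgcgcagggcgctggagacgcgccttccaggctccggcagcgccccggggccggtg
The stretch before Grem1 held GGCGCC from 78 to 73 bases upstream of the start, and those before Twsg1 and Bmper held none. Each stretch was also searched on both strands for the Gli consensus GACCACCCA and the TATA box TATAAA, and neither was present in any of these 3. No match overlapped another, and GGCGCC reads the same on both strands. Of 32851 mouse promoter stretches of the same length, 9.59% held GGCGCC, 0.225% held GACCACCCA and 12.4% held TATAAA. All 3 were rich in G and C: 72.0% for Grem1, 64.4% for Twsg1 and 71.6% for Bmper, beside a median of 52.4% over all stretches. The share of 9.59% for GGCGCC was not taken among stretches as rich in G and C, so it is no matched rate for Grem1. Of the 8 genes, 5 had such a stretch, the others of these being Chrd and Fstl1. Chrd held GGCGCC from 203 to 198 bases upstream of a start that lies inside the annotated span of the gene, and Fstl1 held none of the 3 motifs. The absence of a match says only that these letters are not in this window.

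Signals are array brightness on a linear scale, recovered from the deposited standardized values, and they contain the array background, so differences of dim probe sets are too small. Array medians ran from 661 to 686, and the highest of 23 nonspecific control probe sets ran from 234 to 488. A probe set at or below that control on all 4 arrays of a population is said to be at array background there, and fitted differences that involve such a population, which the plots also show, do not measure a size. The number of arrays limits the precision. The gate was checked first: Gli1 signals were 2255 to 2978 in ZsGreen-high and 1961 to 2705 in ZsGreen-dim cells, above 889 to 1545 in Sca1+ ZsGreen-negative and 684 to 1384 in Sca1- cells. Fibroblast genes were bright in every population, the summed signal of 8 pan-fibroblast markers lying between 211440 and 358328 on every array. They were not level: 6 of 8 were higher in ZsGreen-high and 6 of 8 in ZsGreen-dim than in Sca1- cells, with medians of 0.80 and 0.66 on the log2 scale, and 4 and 1 without mouse 2. With all mice 19.1% and 7.87% of all genes were higher there. Epithelial RNA was present in spite of the Epcam- gate: Epcam signals were 1698 to 6869 in ZsGreen-high, 6249 to 13623 in ZsGreen-dim, 12855 to 20560 in Sca1+ ZsGreen-negative and 10080 to 21786 in Sca1- cells. The mean log2 signal of 17 colon epithelium markers was 11.56 ± 0.87 (SD, n = 4), 13.20 ± 0.52, 13.93 ± 0.29 and 13.88 ± 0.47 in the same order. For the 8 pan-fibroblast markers it was 14.52, 14.42, 14.03 and 13.66, in Sca1- cells below the epithelial mean. The lists hold different genes, so these means do not give shares of cells. In such pooled cells, fewer cells of a type and less RNA per cell cannot be told apart.

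The arrays of mouse 2 did not match one another in a check for mixed-up samples: Xist was at most 198 in its ZsGreen-high and ZsGreen-dim arrays and at least 22097 in its other 2. The genes named below whose calls end without mouse 2 are given with that value, and most counts of lists are given again without it. A fit with mouse as a block treats the arrays of mouse 2 as those of 1 animal. Adjusted p values given with that block therefore rest on a pairing that the Xist check puts in doubt. By Xist all arrays of mouse 1 were male and all of mice 3 and 4 female. Each ZsGreen-positive population thus held more male arrays than each ZsGreen-negative one, and sex was not in the fit. For Fstl1 and Twsg1 the male arrays were the brightest of every population, by the brightest probe set. For Grem1 this held in all but ZsGreen-dim cells, and for Chrd only in ZsGreen-high and Sca1- cells. The part of sex in the differences was not tested. The Sca1- array of mouse 1, the only male one of its population, also stood apart from those of the other 3 mice. Its mean log2 signal was 14.28 for pan-fibroblast markers, against 13.38 to 13.61, 13.20 for epithelium, against 13.98 to 14.28, and 10.03 for 6 markers of glia and neurons, against 9.38 to 9.59.

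Between ZsGreen-high and Sca1+ ZsGreen-negative cells, Grem1, Chrd and Twsg1 were higher and Bmper and Fst were lower in the ZsGreen-high cells. Between ZsGreen-dim and Sca1+ ZsGreen-negative cells, Bmper and Fst were lower. No probe set of the 8 genes passed the threshold between ZsGreen-high and ZsGreen-dim cells. Against Sca1- cells, Grem1, Fstl1 and Twsg1 were higher in both ZsGreen-positive populations, Nog was lower in both, Chrd was higher in ZsGreen-high cells and Chrdl1 was lower in ZsGreen-dim cells. Between the ZsGreen-negative populations Bmper was higher in Sca1+ cells. Here a gene stands for its brightest probe set, and a change is an adjusted p under 0.05 over all 28898 probe sets. These comparisons share populations, so their results are not independent of one another. The mice are separate animals, and differences are given on the log2 scale ± SE.

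**Figure D1:**
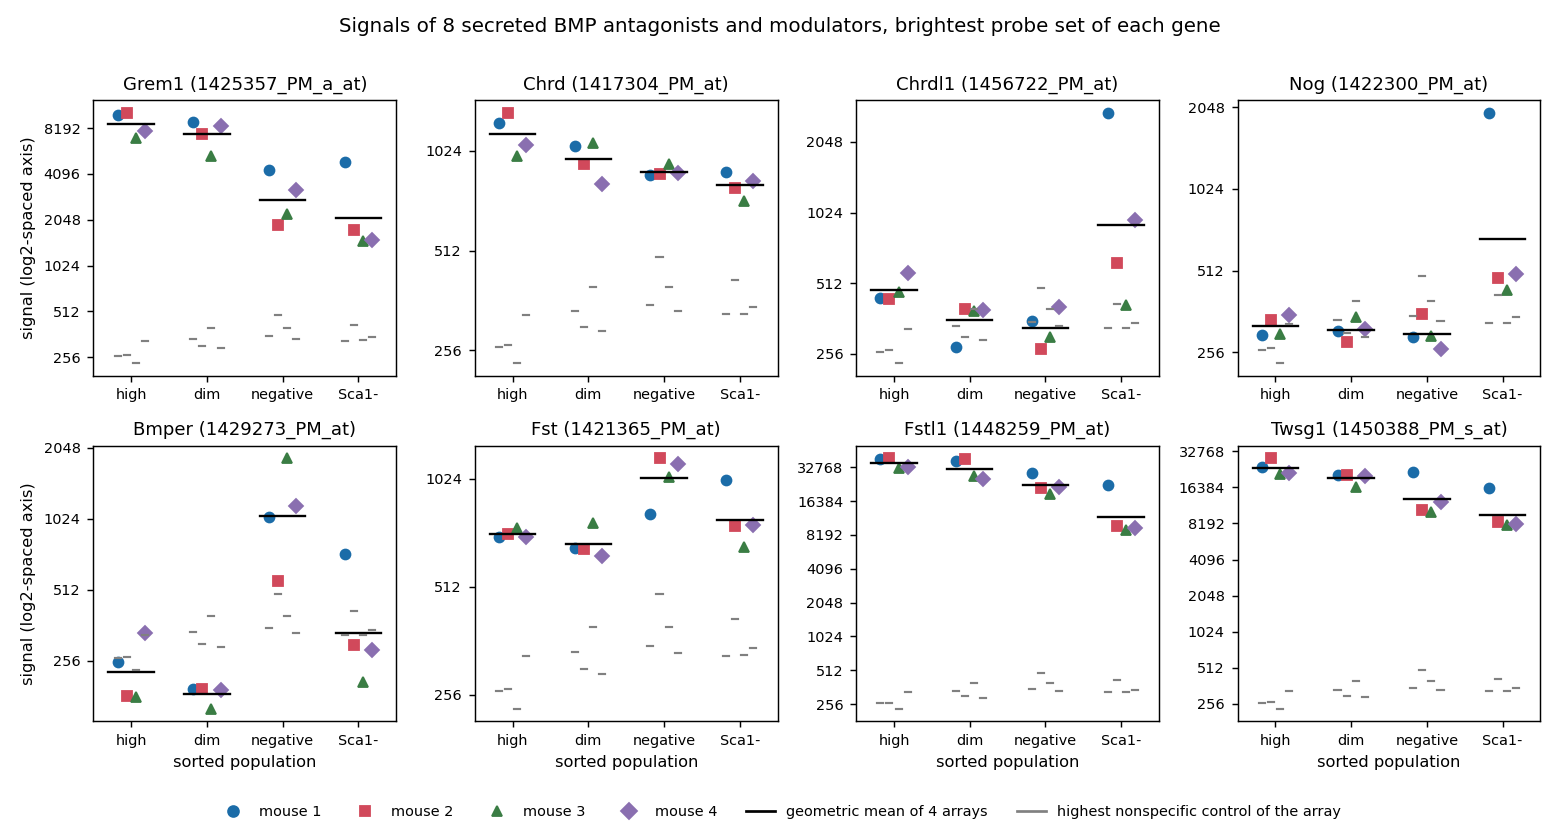
Signal of the brightest probe set of each gene on each array, on a log2-spaced vertical axis, by sorted population. Points are the 4 mice, black lines the geometric mean of 4 arrays, and grey dashes the highest nonspecific control of each array. Grem1 lies between 5358 and 10342 in the ZsGreen-high and ZsGreen-dim populations and at 4882 or less in the others, and Bmper stands above its control on all 4 arrays only in Sca1+ ZsGreen-negative cells.

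Grem1 encodes gremlin 1, a dimeric antagonist that binds BMP2, BMP4 and BMP7. Its signals in mice 1 to 4 were 9949, 10342, 7042 and 7891 in ZsGreen-high cells and 8965, 7548, 5358 and 8531 in ZsGreen-dim cells. They were 4341, 1905, 2236 and 3219 in Sca1+ ZsGreen-negative cells and 4882, 1742, 1485 and 1508 in Sca1- cells. Every ZsGreen-positive array was above every ZsGreen-negative array, and the ZsGreen-positive populations overlapped each other, as did the ZsGreen-negative ones. Grem1 rose by 1.65 ± 0.34 (adjusted p = 0.00239) in ZsGreen-high over Sca1+ ZsGreen-negative cells, higher in 4 of 4 mice. Without mouse 2 the difference was 1.38 with an adjusted p of 0.0527, and over 30 alternatives the adjusted p ran from 2.12e-05 to 0.977. In ZsGreen-dim over Sca1+ ZsGreen-negative cells the difference was 1.42 ± 0.34 with an adjusted p of 0.053. With mouse as a block the adjusted p of that difference was 0.00399, and without the Sca1- array of mouse 1, which is no part of the comparison, it was 0.00454 (alternatives 0.00207 to 0.411). Against Sca1- cells Grem1 rose by 2.06 ± 0.34 (adjusted p = 0.000317) in ZsGreen-high and by 1.84 ± 0.34 (adjusted p = 0.00277) in ZsGreen-dim cells. The latter had an adjusted p of 0.051 without mouse 2 and of 0.0628 without mouse 4, where the difference was 1.61 (alternatives 2.15e-05 to 0.0628). ZsGreen-high and ZsGreen-dim cells differed by 0.22, with a 95% interval from -0.50 to 0.95. Sca1+ ZsGreen-negative and Sca1- cells differed by 0.41 (-0.32 to 1.14).

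Chrd encodes chordin, which binds BMPs and is cut by the BMP1 family of proteases. Its 4 signals were 1247, 1335, 990 and 1064 in ZsGreen-high cells, 1062, 932, 1085 and 811 in ZsGreen-dim cells, 864, 873, 933 and 877 in Sca1+ ZsGreen-negative cells and 885, 791, 722 and 833 in Sca1- cells. The ZsGreen-high arrays were the brightest as a group and did not overlap either ZsGreen-negative population, but they overlapped ZsGreen-dim cells. Chrd rose by 0.38 ± 0.11 (adjusted p = 0.0153) over Sca1+ ZsGreen-negative cells and by 0.51 ± 0.11 (adjusted p = 0.00168) over Sca1- cells. The former was 0.30 without mouse 2 (adjusted p = 0.15) and 0.33 without mouse 1 (adjusted p = 0.0772), with alternatives from 0.000321 to 0.992. Leaving out the ZsGreen-high array of mouse 1 or of mouse 2 alone gave 0.0516 and 0.0571. The other comparisons of Chrd were not called.

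Twsg1 encodes twisted gastrulation, which binds BMPs and chordin together. The signals of its brightest probe set, 1450388_PM_s_at, were 24389, 28563, 21349 and 21402 in ZsGreen-high cells and 20751, 20827, 16530 and 20238 in ZsGreen-dim cells. They were 21805, 10557, 10122 and 12445 in Sca1+ ZsGreen-negative cells and 16209, 8426, 7934 and 8111 in Sca1- cells. Mouse 1 gave the brightest array in each ZsGreen-negative population, and its Sca1+ ZsGreen-negative array reached into the ZsGreen-high range. Twsg1 rose by 0.86 ± 0.24 (adjusted p = 0.0143) in ZsGreen-high over Sca1+ ZsGreen-negative cells, and by 1.29 ± 0.24 (adjusted p = 0.000797) and 1.01 ± 0.24 (adjusted p = 0.0132) over Sca1- cells in ZsGreen-high and ZsGreen-dim cells. Without mouse 2, 3 or 4 the adjusted p was 0.163, 0.0706 or 0.0771 for the first of these (alternatives 8.65e-05 to 0.961) and 0.136, 0.0596 or 0.139 for the last (7.21e-05 to 0.139). The first was at 0.0509 without the Sca1+ ZsGreen-negative array of mouse 3. Probe sets 1421832_PM_at and 1426179_PM_a_at rose in the same 3 comparisons, by 0.89 ± 0.22 and 1.08 ± 0.24 over Sca1+ ZsGreen-negative cells, by 1.43 and 1.57 in ZsGreen-high over Sca1- cells, and by 0.96 and 1.21 in ZsGreen-dim over Sca1- cells. Over Sca1+ ZsGreen-negative cells both lost the call without mouse 2 (adjusted p = 0.112 and 0.0702). In ZsGreen-dim over Sca1- cells both lost it without mouse 4 (0.125 and 0.0768), and the former also without mouse 2 (0.0895). Probe set 1426179_PM_a_at had a difference of 0.71 in ZsGreen-dim over Sca1+ ZsGreen-negative cells, with an adjusted p of 0.123, which was 0.0287 with mouse as a block (alternatives 0.00869 to 0.515). The remaining probe set, 1426073_PM_at, was called in none of the 6 comparisons, with means of 892 to 957 in the 4 populations. The 4 probe sets of Twsg1 thus disagreed: 3 changed and the dimmest did not pass.

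Fstl1 encodes follistatin-like 1, a secreted glycoprotein of fibroblasts and other mesenchymal cells that has been described as binding BMP4. Signals of probe set 1448259_PM_at were 38826, 39221, 32291 and 33165 in ZsGreen-high cells and 37235, 38388, 27560 and 25969 in ZsGreen-dim cells. They were 29334, 21572, 18785 and 21967 in Sca1+ ZsGreen-negative cells and 22757, 9868, 9110 and 9508 in Sca1- cells. The order of the population means was ZsGreen-high, ZsGreen-dim, Sca1+ ZsGreen-negative and Sca1-, and neighbours in that order overlapped. Fstl1 rose over Sca1- cells by 1.60 ± 0.24 (adjusted p = 0.000179) in ZsGreen-high and by 1.43 ± 0.24 (adjusted p = 0.00163) in ZsGreen-dim cells. The latter had an adjusted p of 0.0553 without mouse 2 (alternatives 3.86e-06 to 0.0553). Over Sca1+ ZsGreen-negative cells the ZsGreen-high difference was 0.66 ± 0.24 with an adjusted p of 0.0541, and 0.00786 with mouse as a block (alternatives 0.000474 to 0.795). Sca1+ ZsGreen-negative over Sca1- cells gave 0.94 ± 0.24 with an adjusted p of 0.0605. That p was 0.00652 with mouse as a block, and without the Sca1- array of mouse 1 the difference was 1.25 (adjusted p = 0.000195, alternatives 0.000195 to 0.463). The second probe set, 1416221_PM_at, rose by 0.81 ± 0.27 (adjusted p = 0.0346) in ZsGreen-high over Sca1+ ZsGreen-negative cells, and the adjusted p was 0.163, 0.0998 or 0.115 without mouse 2, 3 or 4 (alternatives 0.000352 to 0.818). Leaving out any 1 of 6 arrays also ended that call (0.0554 to 0.0899). Over Sca1- cells its ZsGreen-dim difference had an adjusted p of 0.0706 without mouse 2. Between the ZsGreen-negative populations it differed by 0.96 (adjusted p = 0.0923, and 0.0126 with mouse as a block, alternatives 0.000481 to 0.502).

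Chrdl1 encodes chordin-like 1, an antagonist of the chordin family. The signals of probe set 1456722_PM_at were 445, 439, 472 and 565 in ZsGreen-high cells, 273, 396, 388 and 393 in ZsGreen-dim cells, and 355, 269, 301 and 406 in Sca1+ ZsGreen-negative cells. In Sca1- cells they were 2723, 623, 415 and 956. Mouse 1 was the brightest of the Sca1- arrays and mouse 3 the dimmest, and the signal of mouse 3 was below every ZsGreen-high array but above all ZsGreen-dim and Sca1+ ZsGreen-negative arrays. Chrdl1 fell by 1.34 ± 0.39 (adjusted p = 0.0359) in ZsGreen-dim against Sca1- cells, lower in 4 of 4 mice. Without mouse 2 or 4 the adjusted p was 0.123 or 0.173, and without mouse 1 the difference was -0.68 (adjusted p = 0.0806, alternatives 0.00794 to 0.173). It was 0.0523 to 0.109 without any 1 of the 4 ZsGreen-dim arrays or the Sca1- array of mouse 4. The ZsGreen-negative populations differed by -1.46 ± 0.39 with an adjusted p of 0.0698. Probe set 1424945_PM_at, with 1875, 797, 442 and 847 in Sca1- cells and 256 to 356 in Sca1+ ZsGreen-negative cells, passed in both: it fell by 1.36 ± 0.29 (adjusted p = 0.00712) in ZsGreen-dim cells and by 1.46 ± 0.29 (adjusted p = 0.0135) in Sca1+ ZsGreen-negative cells. These had adjusted p of 0.0818 and 0.16 without mouse 2, and of 0.08 and 0.157 without mouse 4 (alternatives 8e-04 to 0.0818 and 0.000845 to 0.167). In ZsGreen-dim cells probe set 1434201_PM_at did not exceed array background on any array. Against the mean of Sca1- cells it was at least 1.24-fold lower (adjusted p = 0.0417), but at 0.174, 0.0596 or 0.177 without mouse 2, 3 or 4 (alternatives 0.00411 to 0.177). Its Sca1- signals were 850, 340, 270 and 359, so mouse 1 raised that bound. Leaving out any 1 of 12 arrays also ended that call (0.0509 to 0.0936). Probe set 1421295_PM_at was not called in any comparison, though its ZsGreen-dim difference of -0.49 had an adjusted p of 0.0465 with mouse as a block (alternatives 0.0253 to 0.232).

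Nog encodes noggin, an antagonist that covers the receptor-binding surfaces of BMPs. Its signals were 298, 337, 300 and 352 in ZsGreen-high cells, 306, 280, 347 and 313 in ZsGreen-dim cells, and 291, 355, 295 and 264 in Sca1+ ZsGreen-negative cells. In Sca1- cells they were 1953, 481, 433 and 496. All Sca1- arrays were above all Sca1+ arrays, mouse 1 by the widest margin. The signal exceeded the highest control on 4 of 4 ZsGreen-high arrays, 1 of 4 ZsGreen-dim arrays and 0 of 4 Sca1+ ZsGreen-negative arrays. Nog fell by 1.06 ± 0.34 (adjusted p = 0.0233) in ZsGreen-high and by 1.11 ± 0.34 (adjusted p = 0.0422) in ZsGreen-dim cells against Sca1- cells. Both sizes include the bright Sca1- array of mouse 1. Over the alternatives the differences ran from -1.82 to -0.51 in ZsGreen-high and from -1.37 to -0.59 in ZsGreen-dim cells. Because ZsGreen-dim signals were mostly below the control, the size there is not measured well. The ZsGreen-high difference had an adjusted p of 0.0652 without mouse 2, of 0.06 without mouse 4 and of 0.0557 without the ZsGreen-high array of mouse 1 (alternatives 0.000739 to 0.157). The ZsGreen-dim difference had 0.162, 0.0685 or 0.136 without mouse 2, 3 or 4 (alternatives 0.00109 to 0.162), and leaving out any 1 of 12 arrays also ended that call (0.0503 to 0.104). Sca1+ ZsGreen-negative cells were at array background, at least 1.73-fold below the mean of Sca1- cells, with an adjusted p of 0.101. That bound is raised by the Sca1- array of mouse 1, at 1953 against 433 to 496 in the other mice. Without the Sca1- array of mouse 1 that adjusted p was 0.00161 (alternatives 0.00161 to 0.431).

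The Sca1- population, where Nog and Chrdl1 were highest, also had the highest mean signals for markers of interstitial cells of Cajal, of glia and neurons and of pericytes. The 4 markers of interstitial cells of Cajal, the pacemaker cells of gut muscle, had a mean log2 signal of 12.13 ± 0.33 (SD, n = 4) there, against 10.20, 9.85 and 9.72 in Sca1+ ZsGreen-negative, ZsGreen-dim and ZsGreen-high cells. Kit, their defining receptor, had signals of 4305, 3296, 2433 and 5249 in Sca1- cells and 196 to 691 in all other arrays. Their summed signal was 20214 to 32134 in Sca1- arrays and 4840 to 11385 in all others. The 6 markers of glia and neurons had a summed signal of 4827 to 9323 in Sca1- arrays and 3099 to 3874 in the others, and 1 of the 6 was at array background in Sca1- cells. The part of these cell types in the levels of Nog and Chrdl1 was not tested.

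Bmper encodes BMPER, the vertebrate form of crossveinless 2, which binds BMPs and chordin at the cell surface. Its signals were 253, 181, 180 and 334 in ZsGreen-high cells and 193, 194, 160 and 191 in ZsGreen-dim cells. They were 1035, 559, 1844 and 1157 in Sca1+ ZsGreen-negative cells and 724, 297, 207 and 284 in Sca1- cells. Every Sca1+ ZsGreen-negative array was above every ZsGreen-positive array, and the lowest of them was below the Sca1- array of mouse 1. The signal was above the highest control on 4 of 4 Sca1+ ZsGreen-negative arrays, 1 of 4 ZsGreen-high, 0 of 4 ZsGreen-dim and 1 of 4 Sca1- arrays. Bmper fell by 2.20 ± 0.36 (adjusted p = 0.000626) in ZsGreen-high against Sca1+ ZsGreen-negative cells. Because ZsGreen-high and Sca1- signals were mostly below the control, sizes fitted against these populations are not measured well. ZsGreen-dim cells were at array background and at least 3.20-fold lower (adjusted p = 0.00476). Both were called without mouse 2, the former at a difference of -2.39, and the latter had an adjusted p of 0.054 without mouse 3 and of 0.125 without mouse 4 (alternatives 0.000599 to 0.314). In Sca1+ ZsGreen-negative over Sca1- cells it rose by 1.65 ± 0.36 (adjusted p = 0.024), and without mouse 2 the difference was 1.90 with an adjusted p of 0.0638 (alternatives 0.000992 to 0.291). That p was 0.22 without mouse 3 and 0.291 without mouse 4, and leaving out any 1 of 6 arrays gave 0.0522 to 0.0853.

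Some markers of mesothelium, the cell layer covering the gut, were also highest in Sca1+ ZsGreen-negative cells. Wt1, a transcription factor of mesothelial cells, had signals of 695, 529, 991 and 743 in Sca1+ ZsGreen-negative cells and 236 to 417 on the other arrays. Wt1 fell by 1.14 ± 0.17 (adjusted p = 0.000366) in ZsGreen-high against Sca1+ ZsGreen-negative cells, and it rose by 1.09 ± 0.17 (adjusted p = 0.0018) in Sca1+ ZsGreen-negative over Sca1- cells. Of 10 mesothelium markers, 5 were lower in ZsGreen-high and 2 in ZsGreen-dim than in Sca1+ ZsGreen-negative cells, and 2 were higher in Sca1+ ZsGreen-negative than in Sca1- cells. The same calls were made for 13.8%, 0.567% and 1.22% of all genes. The medians of the list in these comparisons were -0.31, -0.25 and -0.0041, so most of the list did not follow Bmper between the ZsGreen-negative populations, where Wt1 and Rspo1, the latter at array background, were the 2 called. Without mouse 2 the counts were 3, 1 and 2. Their summed signal was 8499 to 11460 in Sca1+ ZsGreen-negative, 7613 to 11240 in Sca1-, 5819 to 8108 in ZsGreen-dim and 4820 to 6837 in ZsGreen-high arrays. In Sca1+ ZsGreen-negative cells 4 of the 10 were at array background on all 4 arrays. The part of mesothelial RNA in the Bmper signal was not tested.

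Fst encodes follistatin, which binds activins tightly and some BMPs less tightly. Signals of probe set 1421365_PM_at were 705, 718, 745 and 706 in ZsGreen-high cells and 656, 650, 772 and 622 in ZsGreen-dim cells. They were 817, 1166, 1032 and 1128 in Sca1+ ZsGreen-negative cells and 1015, 754, 661 and 758 in Sca1- cells. The Sca1+ ZsGreen-negative arrays were above all ZsGreen-positive arrays and overlapped the Sca1- arrays through mouse 1. Fst fell by 0.51 ± 0.13 (adjusted p = 0.00685) in ZsGreen-high and by 0.61 ± 0.13 (adjusted p = 0.0392) in ZsGreen-dim against Sca1+ ZsGreen-negative cells. Without mouse 2 or 4 the adjusted p was 0.0858 or 0.0763 for the former (alternatives 0.000583 to 0.569). For the latter it was 0.366, 0.101 or 0.245 without mouse 2, 3 or 4 (alternatives 0.00203 to 0.366), and leaving out any 1 of 9 arrays also ended that call (0.0537 to 0.132). The former difference was -0.13 when arrays were scaled to their hybridization controls (adjusted p = 0.477), a scaling that moved the median of all probe sets in that comparison by 0.39. Probe set 1434458_PM_at was at array background on all 16 arrays and is given no fold. Its differences had the same signs as those of the brighter probe set in those comparisons, and its call in ZsGreen-dim cells had an adjusted p of 0.0989, 0.0922 or 0.153 without mouse 2, 3 or 4. Its call between the ZsGreen-negative populations had 0.0764, 0.13 or 0.0552.

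**Figure D2:**
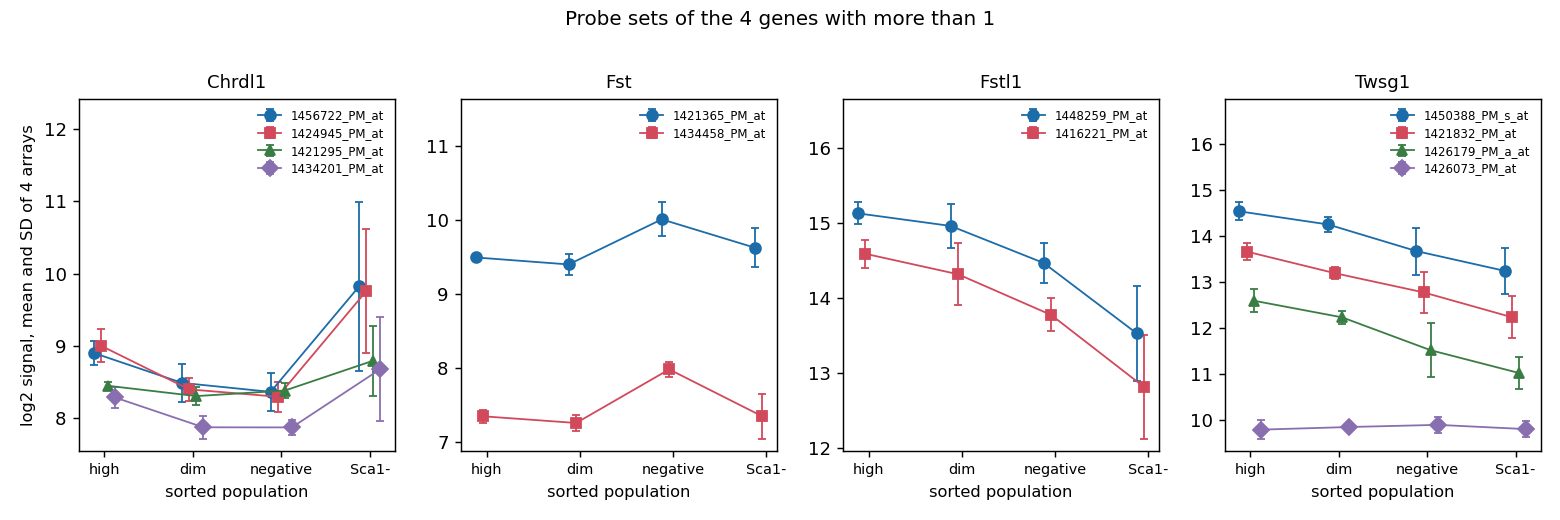
Mean log2 signal ± SD of 4 arrays by sorted population for the probe sets of the 4 genes with more than 1. Probe sets of Chrdl1 are highest in Sca1- cells, where the SD is widest, both probe sets of Fst peak in Sca1+ ZsGreen-negative cells, both of Fstl1 decline from ZsGreen-high to Sca1- cells, and probe set 1426073_PM_at of Twsg1 stays level while its other 3 decline.

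Counts over the 16 probe sets were read against all probe sets. Several of the 16 measure the same gene and can follow one another closely (r = 0.995 for both of Fstl1), so they are not separate members. By the brightest probe set of each gene, 3 of 8 genes were higher and 2 lower in ZsGreen-high against Sca1+ ZsGreen-negative cells. Of all genes 16.8% and 13.8% were. In ZsGreen-high against Sca1+ ZsGreen-negative cells 6 were higher, where 17.2% of all 28898 probe sets were, and 3 were lower, where 12.4% were. The median difference of the 16 was 0.48, beside 0.010 over all probe sets. The arrays of the populations did not overlap for 11 of the 16, and for 29.1% of all probe sets. With 29.6% of all probe sets called in either direction, a call here was common. In ZsGreen-dim against Sca1+ ZsGreen-negative cells 0 were higher and 3 were lower (0.882% and 0.481% of all), the 3 being Bmper and both probe sets of Fst. With limma 3 of the 16 were higher and 3 lower there at an unadjusted p under 0.05. A block for mouse gave 2 higher, those of Grem1 and of Twsg1 1426179_PM_a_at, and 3 lower, where 12.5% of all probe sets were called. For 4 of the 16, the arrays did not overlap, and for 10.4% of all. In ZsGreen-high against ZsGreen-dim cells 0 of 16 were called with limma, where 1.22% of all probe sets were (0.445% of genes higher and 0.871% lower), and 2 were higher and 0 lower at an unadjusted p under 0.05. For 4 of the 16 the arrays did not overlap (11.3% of all).

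In Sca1+ ZsGreen-negative against Sca1- cells 2 of the 16 were higher and 1 was lower, where 1.14% and 1.28% of all probe sets were, 2.42% together. With mouse as a block these were 4 and 1, where 3.64% of all were called, the added ones being both probe sets of Fstl1. Without the Sca1- array of mouse 1 they were 6 and 4 (4.22% of all called), and without mouse 2 or without mouse 4 none was called. The arrays did not overlap for 5 of the 16 and for 5.56% of all. In ZsGreen-high against Sca1- cells 7 were higher and 1 lower, where 19.5% and 15.2% of all were, 34.6% together, and 8 did not overlap (30.5% of all). In ZsGreen-dim against Sca1- cells 6 were higher and 4 lower, where 7.65% and 5.47% of all were, 13.1% together, and 10 did not overlap (13.3% of all). By the brightest probe set of each of the 8 genes, these calls were 1 higher and 0 lower between the ZsGreen-negative populations (1.22% and 1.23% of all genes). Against Sca1- cells they were 4 and 1 in ZsGreen-high (19.1% and 16.6%) and 3 and 2 in ZsGreen-dim cells (7.87% and 5.79%). Without mouse 2 the calls numbered 2, 1, 0, 0, 7 and 1 of 16 in the 6 comparisons in the order given here, where 14.8%, 0.0588%, 0%, 0.917%, 21.2% and 3.63% of all probe sets were called. Without mouse 4 they numbered 6, 0, 0, 0, 7 and 2, beside 17.4%, 0.0519%, 0%, 0.699%, 24.2% and 4.33% of all. Without mouse 3 they numbered 7, 0, 0, 1, 10 and 7, beside 23.2%, 0.176%, 0.844%, 1.26%, 29.0% and 7.98%. Without mouse 1 they numbered 11, 8, 1, 7, 8 and 9, beside 29.3%, 7.98%, 2.78%, 3.30%, 34.3% and 17.4%.

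**Figure D3:**
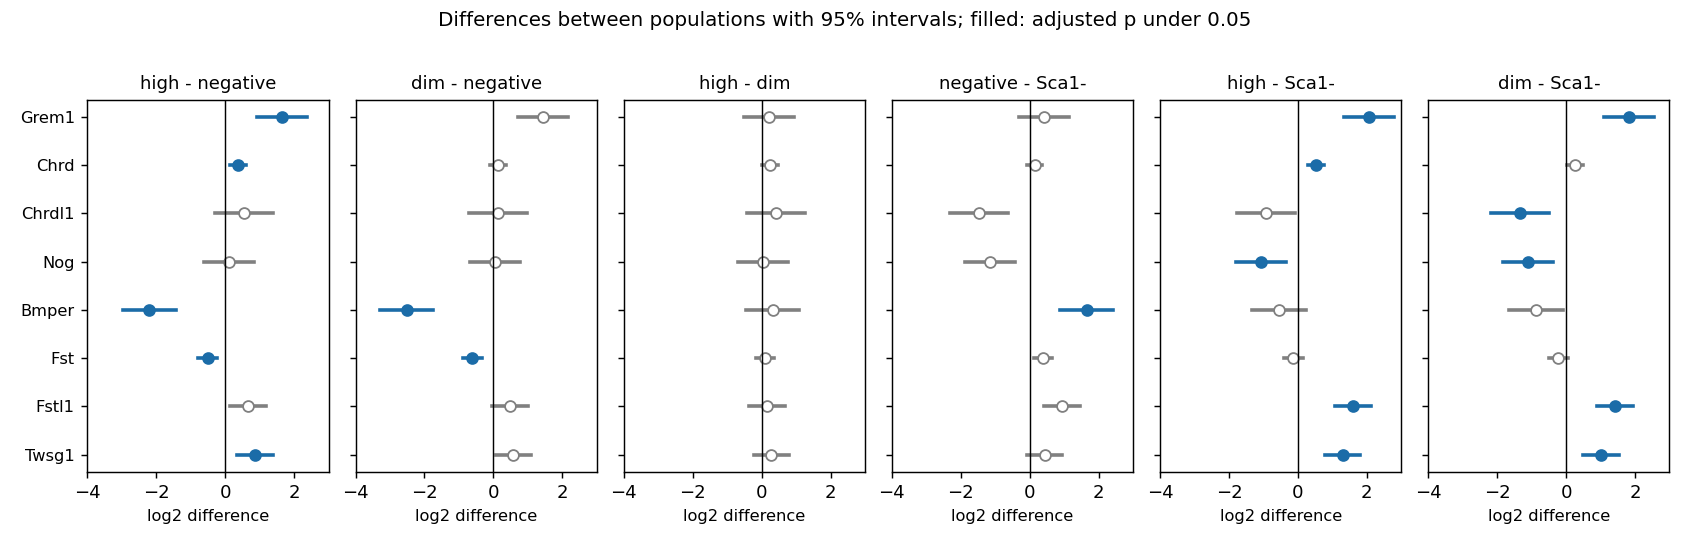
Log2 differences of the brightest probe set of each gene in the 6 comparisons, with 95% intervals from the model, where high and dim are the ZsGreen-high and ZsGreen-dim and negative the Sca1+ ZsGreen-negative population. Filled points have an adjusted p under 0.05. Grem1 and Bmper lie on opposite sides of 0 against Sca1+ ZsGreen-negative cells, every interval of the ZsGreen-high against ZsGreen-dim comparison but that of Chrd includes 0, and Nog lies below 0 in the 3 comparisons with Sca1- cells.

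The epithelial RNA differed between the populations along with several of these genes. All 17 measured colon epithelium markers were lower in ZsGreen-high than in Sca1+ ZsGreen-negative and than in Sca1- cells, 7 were lower in ZsGreen-high than in ZsGreen-dim cells, and 0 passed between ZsGreen-dim and Sca1+ ZsGreen-negative cells with limma, where 5 were lower at an unadjusted p under 0.05. Of all genes 13.8%, 16.6% and 0.871% were lower where the 17, 17 and 7 were. Without mouse 2 the 17, 17 and 7 were 15, 16 and 0. Their summed signal was 41184 to 163682 on ZsGreen-high arrays and 271430 to 403391 on Sca1+ ZsGreen-negative arrays. With their mean as a covariate, 0 of the 16 probe sets and 0% of all probe sets were called between ZsGreen-high and Sca1+ ZsGreen-negative cells. That mean was 10.76 to 12.71 on ZsGreen-high and 13.52 to 14.21 on Sca1+ ZsGreen-negative arrays, with no overlap. The fit therefore cannot separate epithelial RNA from the population in that comparison. In that fit the differences of Grem1, Chrd and Twsg1 1450388_PM_s_at were 0.14, -0.015 and -0.17, and that of Bmper was -2.90. Between ZsGreen-dim and Sca1- cells 1 of 17 epithelial markers was lower, 4 were at an unadjusted p under 0.05, and the list's median difference was -0.68. Grem1 had a difference of 1.40 there with an adjusted p of 0.00532 in the covariate fit. The part of epithelial RNA in these differences was not tested. For Actb the 3′ control signal over the 5′ one was 1.24 ± 0.03 (SD, n = 4) in ZsGreen-high, 1.15 ± 0.07 in ZsGreen-dim, 1.11 ± 0.01 in Sca1+ ZsGreen-negative and 1.11 ± 0.05 in Sca1- cells. The same quotient of Gapdh was 0.997 ± 0.013, 1.02 ± 0.014, 0.954 ± 0.0082 and 0.917 ± 0.017 in that order, lowest in Sca1- cells. The part of these ratios in the differences was not tested.

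Other marker lists also moved in these comparisons. In ZsGreen-high over Sca1+ ZsGreen-negative cells 16.8% of all genes were higher and 13.8% lower. Over Sca1- cells these shares were 19.1% and 16.6% in ZsGreen-high and 7.87% and 5.79% in ZsGreen-dim cells. Of 9 measured markers of smooth muscle and myofibroblasts 7 were higher in ZsGreen-high than in Sca1+ ZsGreen-negative cells, with a median of 1.31, and 6 without mouse 2. Their summed signal was 77897 to 126890 on ZsGreen-high, 37304 to 43196 on ZsGreen-dim, 20314 to 53998 on Sca1+ ZsGreen-negative and 42031 to 100719 on Sca1- arrays. Of 12 endothelial markers 9 were lower and 1 higher in ZsGreen-high than in Sca1+ ZsGreen-negative cells, with a median of -0.70, and without mouse 2 these were 1 and 0. Of 11 measured markers of CD34+ adventitial and crypt-base fibroblasts 8 were higher and 1 lower in ZsGreen-high than in Sca1- cells, with a median of 1.05, and 6 were higher in ZsGreen-dim cells, with a median of 0.91. Without mouse 2, 7 and 5 were higher. Of 10 markers of PDGFRA-high subepithelial fibroblasts, which include Bmp5 and Bmp7, 5 were higher in ZsGreen-high than in Sca1+ ZsGreen-negative cells, with a median of 0.77, and 0 without mouse 2. The part of these cell types in the differences of Grem1, Twsg1 and Fstl1 in the same comparisons was not tested.

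**Figure D4:**
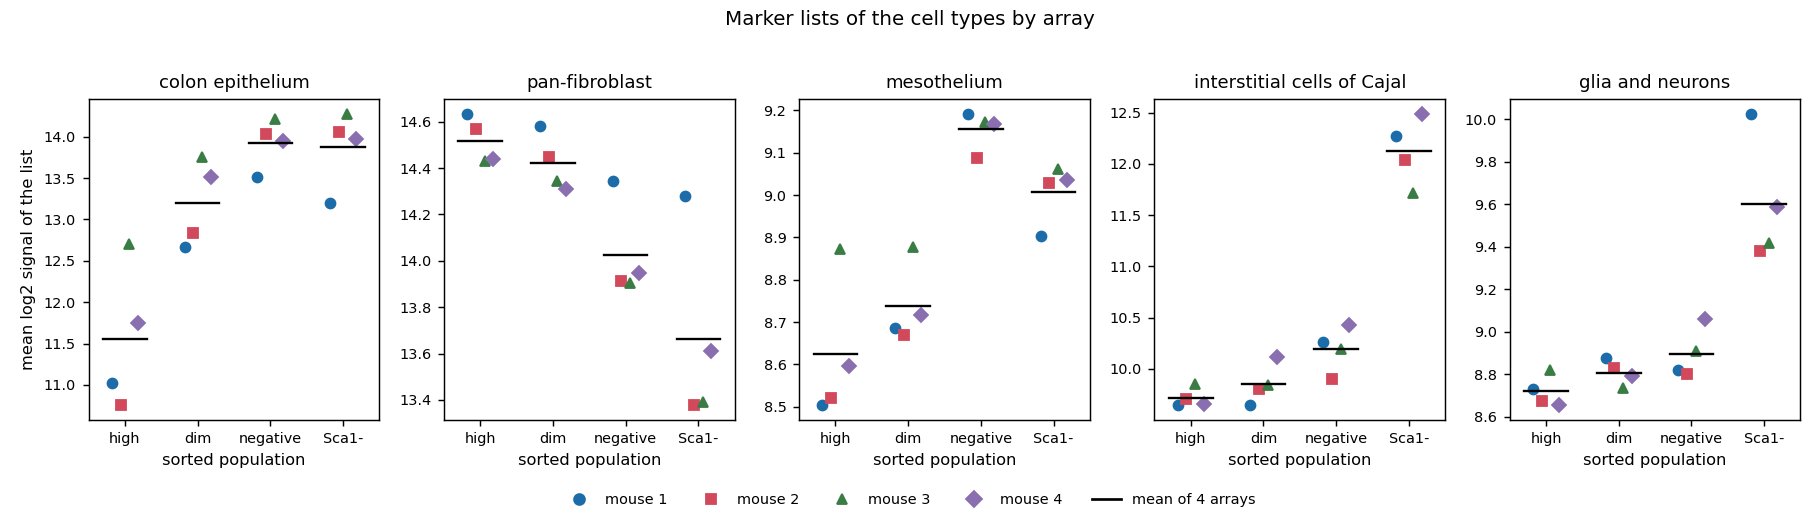
Mean log2 signal of marker lists on each array by sorted population, with the 4 mice as points and the mean of 4 arrays as lines, each panel on its own vertical range. Colon epithelium markers are lowest in ZsGreen-high cells, mesothelium markers highest in Sca1+ ZsGreen-negative cells, and markers of interstitial cells of Cajal and of glia and neurons highest in Sca1- cells, where the array of mouse 1 lies apart for epithelium, fibroblasts and glia.

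**Figure D5:**
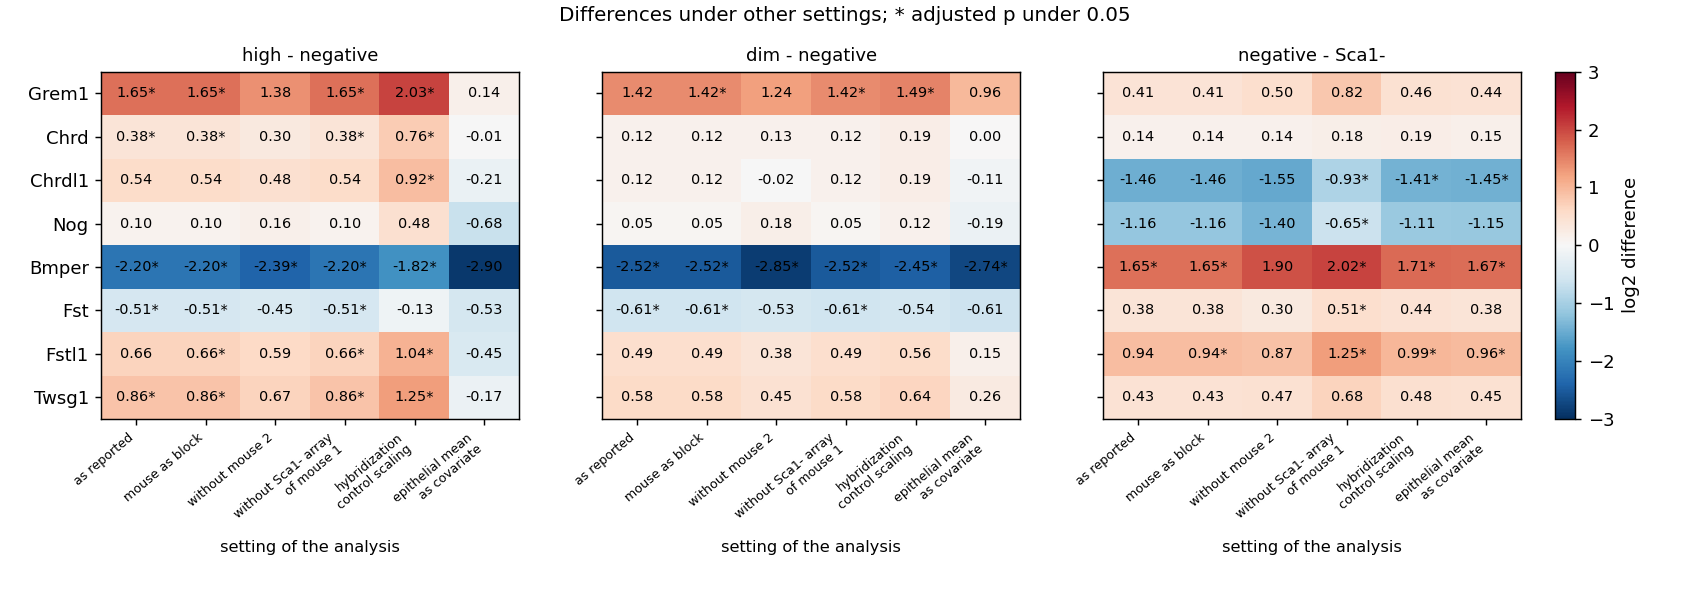
Log2 differences of the brightest probe set of each gene in 3 comparisons as reported and under 5 other settings, with a star for an adjusted p under 0.05 and colour for sign and size. The star of Grem1 in ZsGreen-dim against Sca1+ ZsGreen-negative cells appears with mouse as a block, without the Sca1- array of mouse 1 and with hybridization control scaling, that of Bmper in that comparison is present in all 6 settings, and no star remains in the left panel with the epithelial mean as a covariate.

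The ligands that these proteins act on were read from a list of 18 BMP, GDF and activin genes, 13 of them measured, with 1 probe set per gene. In ZsGreen-high over Sca1+ ZsGreen-negative cells 4 of 13 rose and 1 fell, where 16.8% of all 17097 genes were higher and 13.8% lower, and the median difference of the list was 0.048 beside -0.0020 over all genes. Bmp6 rose by 2.10 ± 0.20 (adjusted p = 6.96e-05), Bmp4, a gremlin 1 target, by 1.35 ± 0.30 (adjusted p = 0.00337) and Bmp7 by 1.13 ± 0.27 (adjusted p = 0.00536). Without mouse 2, 1 rose and 0 fell, and Bmp4 and Bmp7 had adjusted p of 0.0624 and 0.0963. In ZsGreen-dim over Sca1+ ZsGreen-negative cells Bmp6 rose by 1.70 ± 0.20 (adjusted p = 0.00141) and Gdf10 fell by 1.12 ± 0.24 (adjusted p = 0.0439), where 0.86% of all genes were higher and 0.567% lower, and with a mouse block 2 passed in each direction. Without mouse 2 neither passed there, with adjusted p of 0.0962 and 0.21. Against Sca1- cells 6 rose and 3 fell in ZsGreen-high cells (19.1% and 16.6% of all genes), and 4 rose and 1 fell in ZsGreen-dim cells (7.87% and 5.79%). Bmp5 rose there by 1.96 ± 0.32 and 1.68 ± 0.32, and Gdf10 fell by 0.94 ± 0.24 and 1.82 ± 0.24. Without mouse 2 these counts were 4 and 1 in ZsGreen-high and 2 and 1 in ZsGreen-dim cells, and Gdf10 had an adjusted p of 0.0523 in ZsGreen-high cells.

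Of 14 other secreted antagonists 12 were measured. In ZsGreen-high over Sca1+ ZsGreen-negative cells 4 rose and 2 fell, beside 16.8% and 13.8% of all genes. The list's median difference was -0.0093. Fstl3, a relative of follistatin, rose by 1.28 ± 0.22 (adjusted p = 0.000684) and Nbl1, which encodes the antagonist DAN, by 0.97 ± 0.27 (adjusted p = 0.0121). Smoc2, a matrix protein of the SPARC family, fell by 1.50 ± 0.18 (adjusted p = 0.00014), and in ZsGreen-dim cells by 1.40 ± 0.18 (adjusted p = 0.00155). Smoc2 was the only member of that list called in ZsGreen-dim against Sca1+ ZsGreen-negative cells, and with mouse as a block 1 other rose. Sostdc1, an antagonist of BMP and Wnt signals, was highest in Sca1- cells, with a mean of 914 against 384, 442 and 478 in ZsGreen-high, ZsGreen-dim and Sca1+ ZsGreen-negative cells, so those 3 populations were lower than Sca1- cells by log2 differences of 1.22 ± 0.16, 1.01 ± 0.16 and 0.91 ± 0.16. The last had an adjusted p of 0.147 without mouse 2. Without mouse 2, 2 of the 12 rose and 2 fell in ZsGreen-high over Sca1+ ZsGreen-negative cells, where 14.8% of all probe sets were called. Nbl1 then had an adjusted p of 0.132 in that comparison, and Smoc2 had 0.0915 in ZsGreen-dim cells.

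Of 13 measured receptors and co-receptors 6 rose and 1 fell in ZsGreen-high over Sca1+ ZsGreen-negative cells, with a median of 0.27. Of all genes 16.8% rose and 13.8% fell there. Without mouse 2 the list had 1 and 0, where 14.8% of all probe sets were called. Acvr1, a type I receptor of BMPs, rose by 0.86 ± 0.16 (adjusted p = 0.00118), Acvrl1 by 0.74 ± 0.19 (adjusted p = 0.00785) and the type II receptor Bmpr2 by 0.66 ± 0.16 (adjusted p = 0.0056). Without mouse 2 the adjusted p of Acvrl1 and Bmpr2 were 0.0848 and 0.0682. In ZsGreen-dim cells 0 of 13 passed with limma, 6 had an unadjusted p under 0.05, 5 of them positive, and a mouse block gave 4 that rose. Of 10 Smads and Smurfs, 4 rose and 1 fell in ZsGreen-high over Sca1+ ZsGreen-negative cells, with a median of 0.14. The shares of all genes are those given for the receptors. Smad5, a carrier of BMP signals, rose by 0.72 ± 0.15 (adjusted p = 0.00235), Smad3, a carrier of activin and TGF-beta signals, by 0.72 ± 0.16 (adjusted p = 0.00383), and the inhibitory Smad7 fell by 0.54 ± 0.11 (adjusted p = 0.00269). Without mouse 2, 2 rose and 1 fell, these 3 genes. In ZsGreen-dim cells 0 of 10 passed with limma, and 2 were higher and 1 lower at an unadjusted p under 0.05, the same numbers as with mouse as a block.

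Genes known to respond to BMPs were called in both directions. Of 11 measured, 2 rose and 3 fell in ZsGreen-high over Sca1+ ZsGreen-negative cells, with a median of 0.068. Of all genes 16.8% rose and 13.8% fell there. Without mouse 2 the list had 0 and 2, where 14.8% of all probe sets were called. Id1 fell by 1.12 ± 0.17 (adjusted p = 0.000442) and Id3 rose by 0.57 ± 0.20 (adjusted p = 0.0413), both inhibitors of transcription factors, and Id3 had an adjusted p of 0.223 without mouse 2. Against Sca1- cells the same genes gave 3 that rose and 2 that fell in ZsGreen-high cells, beside 19.1% and 16.6% of all genes. Id1 fell there by 1.23 ± 0.17 and Id3 rose by 1.19 ± 0.20. Without mouse 2 the counts were 2 and 2. Of the 3 chordin proteases, Bmp1 rose by 0.90 ± 0.15 (adjusted p = 0.000417) in ZsGreen-high and by 0.86 ± 0.15 (adjusted p = 0.00217) in ZsGreen-dim over Sca1- cells, the latter at 0.0615 without mouse 2. Tll2 was called against Sca1- cells but was at array background in all populations and is given no fold.

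The genes whose log2 signals followed each of the 8 most closely over the 16 arrays were found among 10005 genes brighter than the median. Pearson's r is a description here, because the arrays share mice, populations and the epithelial RNA described above. Grem1 was followed most closely by Tmcc2 (r = 0.988), Bmp4 (0.984) and Zeb2 (0.984). Twsg1 was followed by P2ry14 (0.991), Adam19 and Pcsk6, and Fstl1 by C1s1 (0.988), Sulf1 and Ppic. Chrd had Atg4c (0.917), Fam89b and Dcakd. Bmper had Steap4 (0.891), Angptl4 and Apbb2, and Fst had Pla1a (0.854), Adam33 and Slfn5. Chrdl1 had Npr3 (0.925), Mcam and Ldhb. Nog had Lgi4 (0.965), Kcnip4 and Stab1, and Lgi4, a secreted protein of Schwann cells and glia, was brightest on the Sca1- array of mouse 1, at 5810 against 2642 to 2892 on the other Sca1- arrays.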

How the data were processed

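Per the submitters' processing notes, the authors used Affymetrix Expression Console 1.1. How arrays were summarised and normalized is not given in the sources used here. RNA input was 2 ng per array, per the labels' protocols. The deposited values are a score: each probe set was standardized over the 16 arrays. The design assumed values on a log2 scale, so whole-number signals were recovered: candidates up to 70000, or 200000 for the brightest probe sets, were tried until every array lay within 0.0001 of a whole number. This worked for all 45141 probe sets and gave back each deposited score to within 1e-09. In a test on simulated data 1000 of 1000 were exact.

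Log2 signals of the 28898 probe sets with 1 gene symbol were fitted by lmFit and eBayes of limma 3.58.1, run in R 4.3.3, all 16 arrays together, 1 mean per population, no block. P values are two-sided, adjusted by Benjamini-Hochberg, threshold 0.05. In simulated data for ZsGreen-high against Sca1+ ZsGreen-negative cells, 93 of 100 probe sets changed by log2 1 and 98 of 100 changed by log2 2 were called, and 11 unchanged ones. The simulated noise was independent between probe sets, with no mouse or shared epithelial effect. It checks the code and gives no power or error rate for these data. Within a population r between arrays was 0.968 to 0.994, and 59.2% to 81.4% of probe sets lay above the highest nonspecific control. Where a population was at array background, a fold is given as at least the ratio to that control. By the labels each mouse gave all 4 populations, so mouse numbers pair the arrays. Deviations correlated at 0.255 on average within a mouse (-0.0709 for mouse 2) and at -0.143 between mice.

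Named genes are all probe sets of the 8 genes, up to 3 genes with the largest changes past the threshold from each pathway list and comparison, and the 3 closest patterns of each of the 8. The genes and lists were chosen with earlier results of these data known. Alternatives changed the block, scaling, normalization, filter, scale, covariates, probe sets and arrays. Python 3.11.15 was used with matplotlib 3.10.9 for figures and numba 0.67.0, numpy 2.4.6 and pandas 2.3.3 for the recovery.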

Additional observations from a re-analysis of the deposited data

Results flagged for a closer look

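In 64 groups of 4 arrays, the gap of the highest or lowest array to the nearest other array was read on log2 signals. In 8 groups it was above Dixon's 95% critical share of the group's log2 range. Chance gives that in about 1 of 20 independent groups, whereas these groups share arrays and genes. The Sca1- array of mouse 1 accounted for 5 of the 8. Its Grem1 signal was 4882 against 1485 to 1742 in the other mice, and its Nog signal was 1953 against 433 to 496. For Fstl1 it was 22757 against 9110 to 9868 (1448259_PM_at) and 14737 against 5590 to 5761 (1416221_PM_at). For Twsg1 (1450388_PM_s_at) it was 16209 against 7934 to 8426. Among ZsGreen-dim arrays, mouse 1 had a Chrdl1 signal (1456722_PM_at) of 273 against 388 to 396. The ZsGreen-dim array of mouse 3 had a Bmper signal of 160 against 191 to 194, all of them at array background, and a Twsg1 signal (1450388_PM_s_at) of 16530 against 20238 to 20827.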

How the results depend on the processing

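Of the 33 calls among the 16 probe sets in 6 comparisons, mouse as a replicate block kept 33 and added 6, raising the calls from 3 to 5 between ZsGreen-dim and Sca1+ ZsGreen-negative cells and from 3 to 5 between the ZsGreen-negative populations, and it ended no call. With 1 probe set per gene the calls were 5 of 8 genes in ZsGreen-high against Sca1+ ZsGreen-negative and against Sca1- cells and in ZsGreen-dim against Sca1- cells, and 1 between the ZsGreen-negative populations. With only the 8 arrays compared they were 2 of 16 between ZsGreen-high and ZsGreen-dim cells, 0 between the ZsGreen-negative populations and 6 between ZsGreen-dim and Sca1- cells. Scaling to hybridization controls gave 9 between ZsGreen-high and ZsGreen-dim cells, where 44.2% of all probe sets were called and the median of all was 0.33, and 6 between the ZsGreen-negative populations (2.21% of all). In ZsGreen-high against Sca1- cells that scaling put the median of all at 0.43 and Twsg1 1426073_PM_at, uncalled and near 0 as reported, at 0.42, no more than that shift. On the deposited scores there were 0 between ZsGreen-dim and Sca1+ ZsGreen-negative cells, 0 between the ZsGreen-negative populations and 4 between ZsGreen-dim and Sca1- cells. With the epithelial mean as a covariate there were 0 in ZsGreen-high against Sca1+ ZsGreen-negative and against Sca1- cells, and 6 between the ZsGreen-negative populations. In that mean the ZsGreen-high arrays did not overlap either ZsGreen-negative population, so the fit cannot separate it from the population there. In that fit Chrd was -0.015, Fstl1 1416221_PM_at -0.46 and Twsg1 1450388_PM_s_at -0.17 in ZsGreen-high against Sca1+ ZsGreen-negative cells. The cause of these shifts was not tested. Between ZsGreen-high and ZsGreen-dim cells 1.22% of all probe sets were called as reported, against 44.2% with hybridization control scaling. The share thus moves with the setting, and a count given here without it is no result about the 16 probe sets.

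Leaving out each mouse or array in turn gave 2 to 12 calls in ZsGreen-high against Sca1+ ZsGreen-negative cells (14.8% to 32.0% of all probe sets), 0 to 8 in ZsGreen-dim against Sca1+ ZsGreen-negative cells (0.0519% to 7.98%), 0 to 1 in ZsGreen-high against ZsGreen-dim cells (0% to 4.06%), 0 to 10 between the ZsGreen-negative populations (0.699% to 4.22%), 7 to 10 in ZsGreen-high against Sca1- cells (21.2% to 38.5%) and 1 to 10 in ZsGreen-dim against Sca1- cells (3.63% to 22.1%). Without mouse 2, 11 of the 33 calls were kept. A fit chosen after seeing the data, without mouse 2 and with mouse as a replicate block, kept 26 and added 5. Quantile normalization and all probe sets except controls kept 33 calls each. Over single differences, 2582 kept their direction and side of the threshold, 158 lost the threshold, 82 passed it newly and 4 reversed. Signal near array background limits Bmper, Nog, Chrdl1 and Fst 1434458_PM_at. The unexplained mouse 2 arrays limit every paired count and every fit with mouse as a block that includes them.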
